A study of Caenorhabditis elegans with 6 samples.

Results

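The genes described here encode the nuclear pore and the machinery that carries proteins and RNA through it in *Caenorhabditis elegans*. They were taken as the probe sets whose gene symbol, in either of the 2 tables deposited for baicalein versus DMSO and for DMSO versus water, starts with npp-, ima-, imb-, xpo-, ran-, nxf-, nxt-, thoc- or lmn-. This gave 27 genes with 1 probe set each, of 29317 probe sets on the array. They comprise 15 pore proteins, 6 importins, 2 exportins, 2 genes of the Ran cycle and 2 genes of mRNA export. RefSeq lists 50 worm genes with these prefixes. The other 23, among them the lamin gene, were not analysed here, apart from *npp-25*, *thoc-7* and *xpo-7*. Those carry other symbols in the tables and are described apart from the 27.

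Nuclear pores are large rings of nucleoporins set into the nuclear envelope. A scaffold of the Y complex and the inner ring is held by membrane nucleoporins, and nucleoporins with phenylalanine-glycine (FG) repeats fill the channel. Importins bind cargo in the cytoplasm and release it in the nucleus when they meet the GTPase Ran loaded with GTP, whereas exportins bind cargo together with Ran-GTP and release it when GTP is hydrolysed in the cytoplasm. In *C. elegans* the germline and the early embryo, which divides rapidly on maternally supplied RNA, make heavy use of this machinery, and many of its genes have been studied through embryonic defects of the nuclear envelope.

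RNA came from whole wild-type N2 animals, labelled in all 3 groups as young adults 3 days after hatching. L1 larvae were kept from 16 to 18 h after hatching for 48 h at 20 °C in S medium with water, with 0.4% DMSO, the vehicle, or with 100 µM baicalein, a flavone dissolved in DMSO. Each group has 2 arrays, labelled as independent trials, and all 6 were used. Values are log2 RMA values of a probe set, so a difference of 1 is a doubling, and values of different probe sets were not set against each other. As RNA of whole animals was measured, fewer cells of a type and less RNA per cell cannot be told apart. With n = 2 per group the number of arrays limits the precision.

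The labelled stage was set against marker genes before the comparisons. Of 22 oocyte and early embryo markers, 18 are named in the tables, and their mean log2 value was 2.74 and 2.14 on the water arrays, 7.65 and 7.59 on the DMSO arrays and 5.95 and 5.82 on the baicalein arrays. Of 17 markers of the molting epidermis, a larval tissue state, 9 are named, with means of 6.41 and 6.43 in water, 2.54 and 2.43 in DMSO and 2.37 and 2.16 in baicalein. In the means of both lists the water arrays stood apart from the other 4, although the labels give the 3 groups the same stage. The markers are named only through entries past a threshold in either table, that of DMSO against water included. This favours differences between groups among them, also in the comparison counted next. Of the 9 molting markers 8 were lower in DMSO than in water (limma, adjusted p under 0.05), against 16.7% of all probe sets, which were not chosen in this way. The other, *ptr-2*, was higher, at 5.19 and 5.15 in water, 6.55 and 6.51 in DMSO, and 3.26 and 2.52 in baicalein. The yolk protein gene *vit-2*, an adult product chosen after its values were seen, had log2 values of 1.45 and 1.70 in water, 10.14 and 10.07 in DMSO and 10.49 and 10.32 in baicalein, where the median of all values was 1.51.

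All 27 genes were named by the table of baicalein against DMSO, which holds only entries with an unadjusted p of 0.05 or less, and all 27 are among its 2120 entries listed as lower. Their difference between baicalein and DMSO is therefore given as a description without a test. The comparison of DMSO with water shares the DMSO arrays with that choice and the comparison of baicalein with water shares the baicalein arrays. A choice for high DMSO and low baicalein values favours higher values in DMSO than in water and lower values in baicalein than in water. For this reason the main counts of the 27 in each comparison are set beside the share of all probe sets and beside the share of the 2120 listed entries.

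Every one of the 27 genes had both baicalein arrays under both DMSO arrays, as had 22.3% of all probe sets and 95.3% of the listed entries. The differences ran from -2.35 for *ima-1* to -0.70 for *ima-3* on the log2 scale, with a median of -1.44, against a median of 0.05 over all probe sets and -1.22 over the listed entries. In the limma fit 22 of the 27 had an adjusted p under 0.05, a count that the choice of the genes favours and from which nothing is read. The background was 7.03% of all probe sets lower in baicalein by the same threshold, and 64.6% of the listed entries. The 5 others were *npp-6*, *npp-10*, *ima-3*, *imb-3* and *thoc-1*. The count was 10 without either water array, 6 without DMSO replicate 2 and 0 without DMSO replicate 1, while the sign of all 27 differences was negative under each of the 15 alternative settings.

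**Figure D1:**
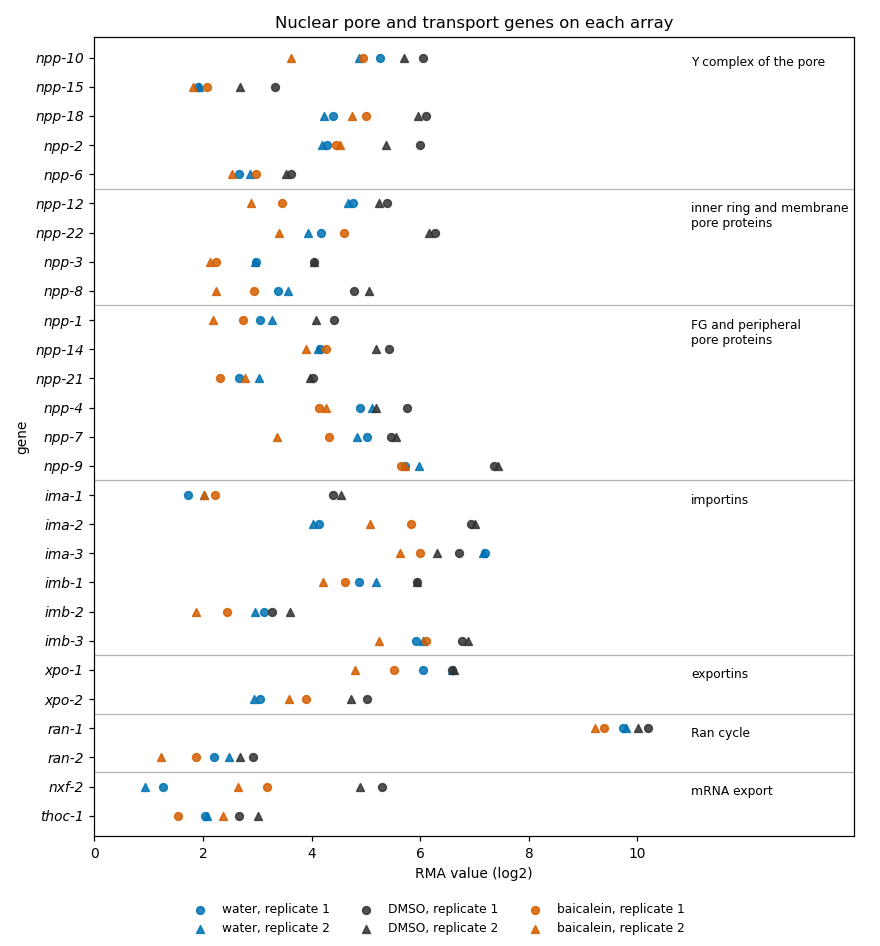
The plot gives the log2 RMA value of each gene (horizontal axis) on each of the 6 arrays, with genes grouped by role and groups told apart by colour. In every row both baicalein points lie to the left of both DMSO points, whereas both water points lie to the left of the baicalein points for 5 genes (*npp-2*, *npp-18*, *ima-2*, *xpo-2* and *nxf-2*) and to the right of all others for *ima-3*.

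Between DMSO and water, 16 of the 27 genes rose in DMSO, none fell and 11 did not pass (limma, adjusted p under 0.05). At an unadjusted p under 0.05 only *ima-3* was lower in DMSO. The background was 10.9% of all probe sets rising and 16.7% falling. Of the listed entries 59.5% rose and 3.16% fell, and 16 of 27 is 59.3%, so the share was near that of the entries chosen in the same way. The median difference was 1.08, against 0.09 over all probe sets and 1.03 over the listed entries. The 16 were 11 of 15 pore proteins, 3 of 6 importins, *xpo-2* and *nxf-2*. Both DMSO arrays lay above both water arrays for 25 genes, against 41.1% of all probe sets and 81.2% of the listed entries. The exceptions were *xpo-1*, whose arrays overlapped, and *ima-3*, whose DMSO arrays lay under the water arrays, as for 31.9% of all probe sets and 8.44% of the listed entries. Without water replicate 1 and without DMSO replicate 1 the count was 10 each, and 9 of the 16 passed whichever of the 6 arrays was left out.

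Between baicalein and water few genes passed, in both directions. *ima-2*, *nxf-2* and *xpo-2* were higher in baicalein, *npp-3*, *npp-12*, *ima-3*, *imb-2* and *xpo-1* were lower, and 19 did not pass. The background was 6.79% of all probe sets higher and 15.4% lower, and 13.6% and 16.4% of the listed entries, so that 3 of 27 (11.1%) and 5 of 27 (18.5%) were near the latter. The median difference was -0.31, against 0.07 over all probe sets and -0.12 over the listed entries. Both baicalein arrays lay under both water arrays for 13 genes, against 31.3% of all probe sets and 41.2% of the listed entries. They lay above them for 5 genes, against 37.8% and 30.8%. The balance of the 8 calls depended on the scaling of the arrays. It was 5 lower and 3 higher as deposited, 3 lower and 5 higher after a further quantile normalization, and 5 lower and 6 higher after cyclic loess normalization. Without water replicate 1 or replicate 2 there were 2 lower and 1 higher, and without baicalein replicate 1 there were 12 lower. Only *ima-3*, *npp-12* and *nxf-2* passed whichever array was left out.

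**Figure D2:**
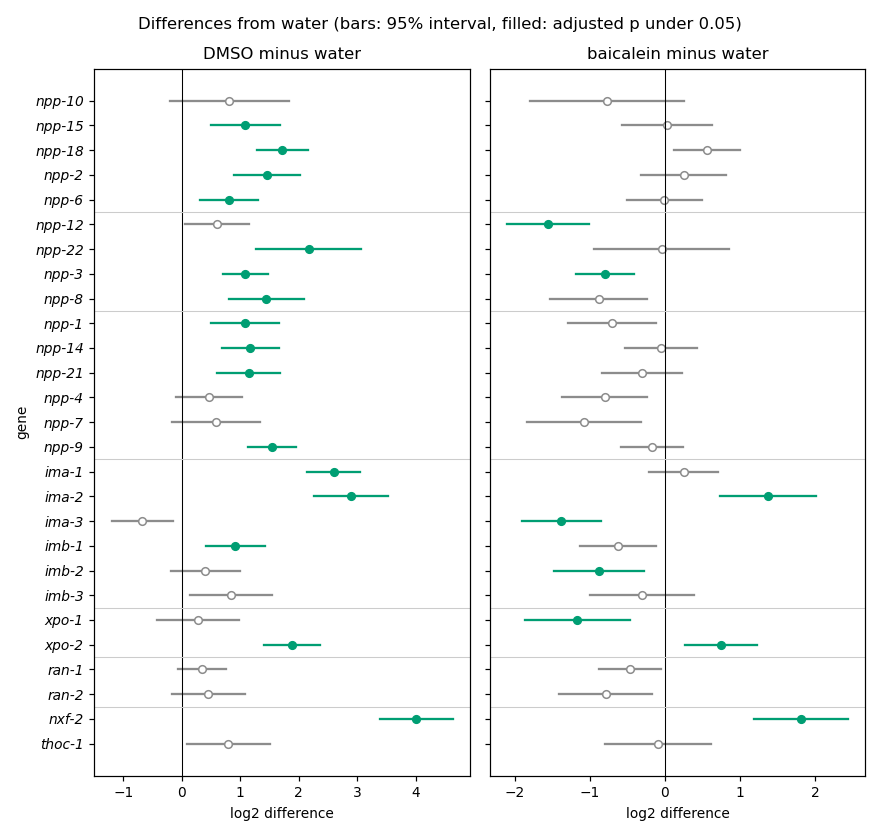
Points are the log2 differences of DMSO from water (left) and of baicalein from water (right) for each gene, bars are 95% intervals of the limma fit, and filled points have an adjusted p under 0.05. On the left 26 of 27 points lie above 0 and that of *ima-3* lies below, and on the right 20 points lie below 0 and 7 above.

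By group means, 19 genes were highest in DMSO and lowest in baicalein with water between, and 7 were highest in DMSO and lowest in water (*ima-1*, *ima-2*, *npp-2*, *npp-15*, *npp-18*, *nxf-2* and *xpo-2*). *ima-3* alone was highest in water. Neighbours in these orders often did not differ beyond their spread, as 19 of the 27 differences of baicalein from water did not pass.

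The Y complex forms the outer rings of the pore scaffold and also acts at kinetochores in mitosis, and 5 of its genes were measured. Of these 4 were higher in DMSO than in water and none passed between baicalein and water. *npp-10*, whose product is cleaved into the counterparts of human Nup98 and Nup96, had log2 values of 5.26 and 4.87 in water, 6.05 and 5.70 in DMSO, and 4.96 and 3.63 in baicalein. The baicalein arrays were 1.33 apart, the widest gap of any of the 27 genes within a group, and the water and baicalein arrays overlapped. Its difference from DMSO to water, 0.81 ± 0.43 (SE), did not pass (adjusted p = 0.216), and neither did that from baicalein to water, -0.77 ± 0.43 (adjusted p = 0.232). *npp-2*, the Nup85 counterpart, stood at 4.28 and 4.19 in water, 5.99 and 5.38 in DMSO, and 4.44 and 4.52 in baicalein. Its DMSO arrays were above the other 4, and the rise over water was 1.45 ± 0.23 or 2.74-fold (adjusted p = 0.00443).

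*npp-18*, the Seh1 counterpart, had values of 4.39 and 4.23 in water, 6.10 and 5.96 in DMSO, and 5.0 and 4.74 in baicalein, so that the 3 groups did not overlap. It rose 3.29-fold in DMSO over water (1.72 ± 0.18, adjusted p = 0.00079), the largest difference in the Y complex. In baicalein it was 0.56 ± 0.18 above water, which did not pass as deposited (adjusted p = 0.0742) but did after a further quantile normalization (adjusted p = 0.00884) and after cyclic loess normalization (adjusted p = 0.0193). *npp-15*, the Nup133 counterpart, was 1.09 ± 0.25 higher in DMSO than in water (adjusted p = 0.0185), and *npp-6*, the Nup160 counterpart, 0.81 ± 0.21 (adjusted p = 0.0287). The calls of *npp-15* were lost without water replicate 1, water replicate 2 or DMSO replicate 1 (adjusted p = 0.0996, 0.0952 and 0.0775), and those of *npp-6* without any of the 4 water and DMSO arrays (adjusted p from 0.0894 to 0.177).

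The inner ring and membrane nucleoporins line the pore against the envelope, and *npp-3* and *npp-8*, with their counterparts Nup205 and Nup155 in human cells, belong to the ring, whereas *npp-12* (gp210) and *npp-22* (NDC1) span the membrane. Of these 4 genes 3 were higher in DMSO than in water, and 2 were lower in baicalein than in water. *npp-8* had log2 values of 3.38 and 3.57 in water, 4.79 and 5.06 in DMSO, and 2.95 and 2.24 in baicalein. The 3 groups did not overlap, and baicalein was lowest. *npp-8* rose 2.73-fold in DMSO over water (1.45 ± 0.27, adjusted p = 0.00794), a call lost without water replicate 1 (adjusted p = 0.061) or DMSO replicate 2 (adjusted p = 0.0621).

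*npp-22* stood at 4.17 and 3.93 in water, 6.28 and 6.16 in DMSO, and 4.60 and 3.41 in baicalein. The baicalein arrays lay on either side of the water arrays, and both were far under the DMSO arrays. The difference of DMSO from water was 2.17 ± 0.37 or 4.50-fold, the largest of the 15 pore proteins (adjusted p = 0.00588, and 0.0508 without DMSO replicate 1), while that of baicalein from water was -0.05 with a 95% interval from -0.94 to 0.85.

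*npp-12* gave another picture, with 4.76 and 4.68 in water, 5.39 and 5.24 in DMSO, and 3.45 and 2.88 in baicalein. Its difference of DMSO from water was 0.60 ± 0.23 and did not pass (adjusted p = 0.104), whereas baicalein was 2.94-fold under water (-1.55 ± 0.23, adjusted p = 0.00432), and this call held whichever array was left out. *npp-3*, at 2.99 and 2.96 in water, 4.05 and 4.05 in DMSO, and 2.23 and 2.12 in baicalein, was the only gene of the 27 that passed in both comparisons with water in opposite directions. It was 1.08 ± 0.16 above water in DMSO (adjusted p = 0.00317) and -0.80 ± 0.16 from water in baicalein (adjusted p = 0.0145). The second call was lost after a further quantile or cyclic loess normalization (adjusted p = 0.358 each) and without water replicate 1 or 2 (adjusted p = 0.101 and 0.0969).

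The FG and peripheral nucleoporins fill the channel or form the filaments and the basket. Of 6 genes, 4 were higher in DMSO than in water (*npp-1*, *npp-9*, *npp-14* and *npp-21*) and none passed between baicalein and water, where all 6 differences were negative, from -1.08 to -0.05. *npp-9*, the counterpart of RanBP2 on the cytoplasmic filaments, had log2 values of 5.73 and 5.97 in water, 7.36 and 7.44 in DMSO, and 5.65 and 5.71 in baicalein. The baicalein arrays lay just under the water arrays and the DMSO arrays well above both. *npp-9* rose 2.92-fold in DMSO over water (1.55 ± 0.17, adjusted p = 0.000994), and baicalein differed from water by -0.17 with a 95% interval from -0.59 to 0.25.

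*npp-1*, the Nup54 counterpart of the central channel, stood at 3.05 and 3.28 in water, 4.41 and 4.09 in DMSO, and 2.73 and 2.19 in baicalein, with no overlap between the groups. Its rise in DMSO over water, 1.09 ± 0.24 (adjusted p = 0.0173), was lost without water replicate 1, water replicate 2 or DMSO replicate 1 (adjusted p = 0.116, 0.064 and 0.105). *npp-14* (Nup214) rose by 1.17 ± 0.20 (adjusted p = 0.00568) and *npp-21*, the counterpart of the basket protein TPR, by 1.15 ± 0.22 (adjusted p = 0.00977). The call of *npp-21* did not survive the omission of water replicate 1 (adjusted p = 0.0784) or of DMSO replicate 1 or 2 (adjusted p = 0.0636 and 0.0546). The channel gene *npp-4* and the basket gene *npp-7* (Nup153) did not pass, with differences of 0.47 ± 0.23 and 0.59 ± 0.32 (adjusted p = 0.198 and 0.228).

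The importin alpha genes, whose products bind the classical nuclear localization signal and link cargo to importin beta, did not share a pattern. *ima-1* and *ima-2* are expressed mainly in the germline, and *ima-3* in germline and somatic tissues. *ima-1* had log2 values of 1.72 and 2.03 in water, 4.39 and 4.55 in DMSO, and 2.22 and 2.03 in baicalein. DMSO stood alone, with baicalein and water overlapping, and the rise in DMSO over water was 6.05-fold (2.60 ± 0.19, adjusted p = 0.000178). Baicalein differed from water by 0.25, with a 95% interval from -0.21 to 0.71.

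*ima-2* stood at 4.14 and 4.03 in water, 6.95 and 7.01 in DMSO, and 5.84 and 5.07 in baicalein. The groups did not overlap and baicalein was intermediate. *ima-2* rose 7.42-fold in DMSO over water (2.89 ± 0.27, adjusted p = 0.000438) and 2.58-fold in baicalein over water (1.37 ± 0.27, adjusted p = 0.0127), the latter lost without water replicate 1 or 2 (adjusted p = 0.0671 and 0.0859).

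*ima-3* ran the other way against water, with 7.20 and 7.17 in water, 6.71 and 6.31 in DMSO, and 6.0 and 5.62 in baicalein. It was the only gene of the 27 with both water arrays above all others. The difference of DMSO from water was -0.68 ± 0.22 and did not pass (adjusted p = 0.0639). It did pass with only the arrays of the compared groups (adjusted p = 0.0385), after a further quantile normalization (adjusted p = 0.0362) and after cyclic loess normalization (adjusted p = 0.0217). Baicalein was 2.60-fold under water (-1.38 ± 0.22, adjusted p = 0.00586), and this call held whichever array was left out. As deposited, the 3 importin alpha genes thus had 3 different calls in baicalein against water. *ima-2* was higher, *ima-3* lower and *ima-1* did not pass, although a test of the difference between genes was not made. After cyclic loess normalization *ima-1* also passed as higher (adjusted p = 0.0211), like *ima-2*.

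**Figure D3:**
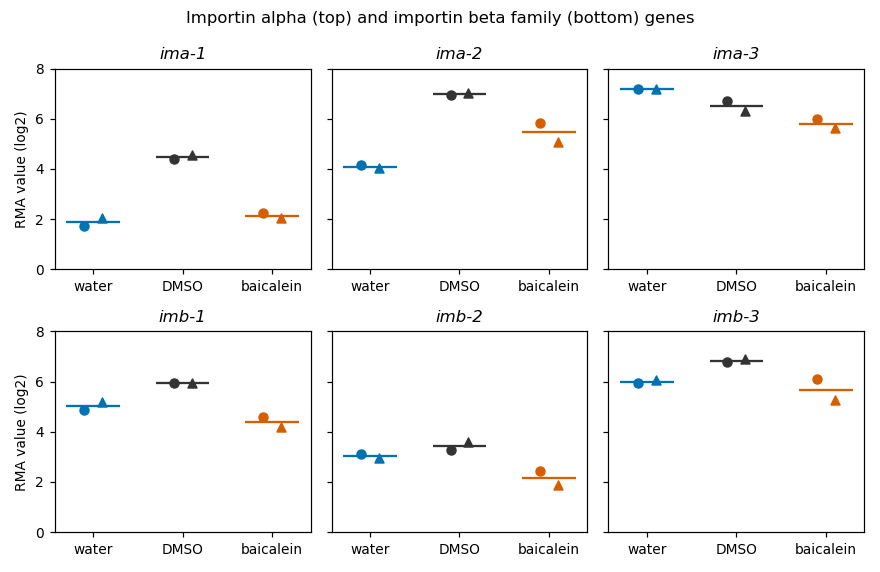
Each panel shows the log2 RMA value of an importin gene on the 6 arrays, with circles for replicate 1, triangles for replicate 2 and a line at the group mean. *ima-1* and *ima-2* are lowest in water, *ima-3* is highest in water, and the 3 importin beta family genes are highest in DMSO and lowest in baicalein.

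The importin beta family genes carry cargo through the channel. *imb-1*, which encodes importin beta, had log2 values of 4.88 and 5.19 in water, 5.94 and 5.95 in DMSO, and 4.61 and 4.21 in baicalein. The groups did not overlap, and the rise in DMSO over water was 0.91 ± 0.21 (adjusted p = 0.0191), a call lost when any of the 4 water and DMSO arrays was left out (adjusted p from 0.0525 to 0.138). *imb-2*, the transportin gene, stood at 3.12 and 2.95 in water, 3.26 and 3.61 in DMSO, and 2.44 and 1.87 in baicalein. DMSO and water were close, at 0.40 ± 0.25 (adjusted p = 0.286), and baicalein was under both. The difference of baicalein from water, -0.88 ± 0.25, passed by a small margin (adjusted p = 0.0484). It did not pass without any array other than baicalein replicate 1, with an adjusted p of 0.222 and 0.158 without the water arrays, 0.0757 without either DMSO array and 0.125 without baicalein replicate 2.

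*imb-3*, the counterpart of importin 5, had values of 5.93 and 6.05 in water, 6.77 and 6.88 in DMSO, and 6.12 and 5.25 in baicalein. Neither comparison with water passed as deposited, at 0.84 ± 0.29 for DMSO (adjusted p = 0.0794) and -0.31 ± 0.29 for baicalein (adjusted p = 0.471). The rise in DMSO did pass with only the arrays of the compared groups (adjusted p = 0.00851). It also passed after a further quantile (adjusted p = 0.0188) or cyclic loess normalization (adjusted p = 0.035). The table entry of *imb-3* also lists transcripts of C53D5.5, so its probe set may read more than 1 gene.

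The exportins differed from each other. *xpo-1* encodes CRM1, which exports proteins with leucine-rich signals, and had log2 values of 6.06 and 6.59 in water, 6.59 and 6.62 in DMSO, and 5.52 and 4.80 in baicalein. Water and DMSO overlapped, with a difference of 0.28 ± 0.29 (adjusted p = 0.524), and both baicalein arrays were lower. Baicalein was 2.24-fold under water (-1.16 ± 0.29, adjusted p = 0.0327), a call lost without water replicate 1 (adjusted p = 0.0587), water replicate 2 (0.199), either DMSO array (0.0734) or baicalein replicate 2 (0.0825).

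*xpo-2* encodes the counterpart of CAS, which returns importin alpha to the cytoplasm. Its values were 3.05 and 2.94 in water, 5.03 and 4.72 in DMSO, and 3.89 and 3.59 in baicalein. The groups did not overlap and stood in the same order as for the importin alpha gene *ima-2*. *xpo-2* rose 3.69-fold in DMSO over water (1.88 ± 0.20, adjusted p = 0.000798), which held whichever array was left out. The rise of *xpo-2* in baicalein over water was 1.68-fold (0.75 ± 0.20, adjusted p = 0.041) and was lost when any array other than baicalein replicate 2 was left out (adjusted p from 0.0584 to 0.217).

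The Ran cycle supplies direction to transport. *ran-1*, the gene of the GTPase itself, had log2 values of 9.75 and 9.79 in water, 10.20 and 10.02 in DMSO, and 9.39 and 9.23 in baicalein. The groups did not overlap, but the steps were small, at 0.34 ± 0.17 for DMSO over water (adjusted p = 0.202) and -0.46 ± 0.17 for baicalein from water (adjusted p = 0.103). *ran-2*, which encodes the activator of GTP hydrolysis RanGAP, stood at 2.21 and 2.48 in water, 2.92 and 2.68 in DMSO, and 1.88 and 1.23 in baicalein. Its groups did not overlap either, and neither difference from water passed (0.46 ± 0.26, adjusted p = 0.247, and -0.79 ± 0.26, adjusted p = 0.0742).

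The mRNA export genes held the largest difference of DMSO from water among the 27. *nxf-2*, a paralogue of the main mRNA export receptor gene, had log2 values of 1.26 and 0.93 in water, 5.30 and 4.90 in DMSO, and 3.17 and 2.64 in baicalein. The groups were far apart, with water under the median of all values, 1.51, which served as a floor. Against that floor *nxf-2* was at least 12-fold higher in DMSO than in water (adjusted p = 0.000112) and at least 2.62-fold higher in baicalein than in water (adjusted p = 0.00394), and both calls held whichever array was left out. *thoc-1*, a subunit of the THO complex that couples transcription to export, stood at 2.03 and 2.07 in water, 2.67 and 3.02 in DMSO, and 1.55 and 2.38 in baicalein. The baicalein arrays of *thoc-1* lay on either side of the water arrays, and neither comparison with water passed (0.79 ± 0.30 for DMSO, adjusted p = 0.0971, and -0.09 ± 0.30 for baicalein, adjusted p = 0.844).

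The baicalein arrays disagreed more than the others over these genes. The median absolute gap between the arrays of a group was 0.45 for baicalein, 0.18 for DMSO and 0.18 for water. It was 0.28, 0.21 and 0.16 over all probe sets and 0.27, 0.16 and 0.18 over the listed entries. Baicalein replicate 2 was under replicate 1 for 22 of the 27 genes, against 52.3% of all probe sets, and the 5 exceptions were *npp-2*, *npp-4*, *npp-9*, *npp-21* and *thoc-1*. The median of replicate 2 minus replicate 1 in baicalein was -0.40 over the 27, -0.02 over all probe sets and -0.22 over the listed entries. In DMSO replicate 2 was the lower array for 16 genes, against 52.0% of all probe sets, and in water for 13, against 49.1%.

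**Figure D4:**
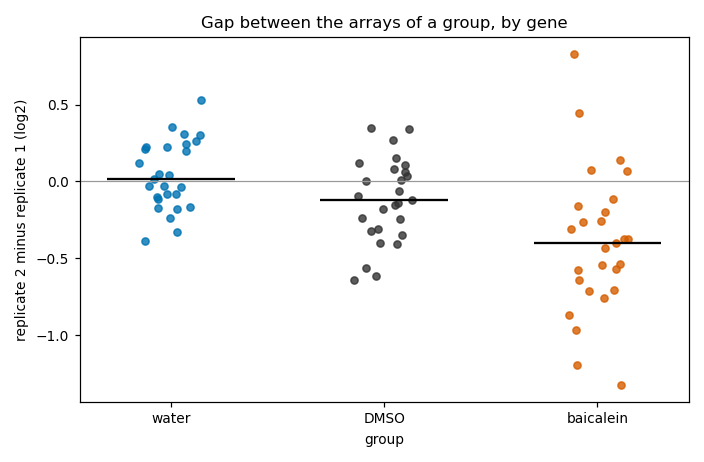
Each point is the log2 value of a gene on replicate 2 minus that on replicate 1, by group, and the black line is the median over the 27 genes. The baicalein median is -0.40, with *npp-10* lowest, while the DMSO and water medians are -0.12 and 0.01.

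Other genes of the pathway, which carry other symbols in the tables, were likewise named only through entries past a threshold. *mel-28*, whose product seeds pore assembly on chromatin as ELYS does in human cells, had values of 4.03 and 4.03 in water, 5.42 and 5.46 in DMSO, and 3.86 and 2.83 in baicalein. It was 1.41 ± 0.33 higher in DMSO than in water (adjusted p = 0.0191). *npp-25*, a membrane nucleoporin listed under its systematic name, stood at 3.55 and 3.96 in water, 3.26 and 2.89 in DMSO, and 2.43 and 1.67 in baicalein. Its order was that of *ima-3*, with water highest, and baicalein was 3.27-fold under water (-1.71 ± 0.30, adjusted p = 0.00916). *thoc-7* of the THO complex was 2.81-fold higher in DMSO than in water (1.49 ± 0.16, adjusted p = 0.00088), and the exportin gene *xpo-7* had values of 3.52 and 4.02 in water, 4.10 and 4.39 in DMSO, and 2.83 and 2.88 in baicalein.

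A list of 15 nuclear envelope genes, which also counts *mel-28*, has 5 genes named through entries past a threshold. The entries are from either table, that of DMSO against water included, which favours calls among them. The listed entries, all lower in baicalein than in DMSO, were not chosen in the same way, so nothing is read from a share above theirs. All 5 were higher in DMSO than in water, against 10.9% of all probe sets and 59.5% of the listed entries. *sun-1*, which encodes a germline protein of the inner nuclear membrane that tethers chromosomes in meiosis, had values of 1.30 and 1.35 in water, 5.29 and 5.18 in DMSO, and 3.51 and 3.32 in baicalein. Like *nxf-2* it was under the floor in water. With the water mean raised to the floor, *sun-1* was 13.2-fold higher in DMSO and 3.73-fold higher in baicalein than in water. The fit without the floor gave 3.91 ± 0.17 (adjusted p = 2.6e-05) and 2.09 ± 0.17 (adjusted p = 0.000343). *samp-1*, another inner membrane protein gene, rose 3.34-fold in DMSO over water (1.74 ± 0.19, adjusted p = 0.000957). Of 12 partners of RNA export 3 are named in the same way and 2 were higher in DMSO than in water. Of 9 genes of the SUMO pathway 3 are named and 1 was higher, beside the same shares of 10.9% and 59.5%.

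The means of the named oocyte and meiosis markers were highest on the DMSO arrays, as was that of the 27 genes. The order of water and baicalein differed between these means. The markers of this and the other lists are likewise named only through entries past a threshold in either table, which favours calls among them. The listed entries are only those lower in baicalein than in DMSO. They were not chosen like the markers, so nothing is read from a share above theirs. Their unnamed genes were not analysed here. All 18 named oocyte and early embryo markers were higher in DMSO than in water, against 10.9% of all probe sets and 59.5% of the listed entries, and 15 were lower in baicalein than in DMSO, against 7.03% and 64.6%. All 9 named markers of germline proliferation and meiosis, of 23 listed, were higher in DMSO than in water and lower in baicalein than in DMSO, with mean log2 values of 1.58 and 1.53 in water, 4.48 and 4.37 in DMSO, and 2.75 and 2.25 in baicalein. The mean of the 27 genes was 4.10 and 4.14 in water, 5.36 and 5.24 in DMSO, and 4.03 and 3.63 in baicalein. The mean of the 27 was thus lower in baicalein than in water, although 7 of them had the reverse order, while the means of both marker lists were higher. Between baicalein and water 5 of the 9 meiosis markers did not pass. Among these *gld-4* had the lower mean in baicalein, 1.93 against 2.54 in water. For the 27 genes the sign of this difference was kept under all 15 alternative settings in 19. The 11 named sperm markers, of 30, had means of 1.73 and 1.37 in water, 4.91 and 4.60 in DMSO, and 6.08 and 6.0 in baicalein. Of the 11, 8 were higher in baicalein than in DMSO, against 507 of all 29317 probe sets, and these 8 are all *msp* genes. *spe-44*, a regulator of sperm genes and the only named sperm marker that is no *msp* gene, was lower (-1.39 ± 0.28, adjusted p = 0.0324). Somatic lists had other patterns. Of 8 named neuron markers 6 were lower in DMSO than in water and 3 were higher in baicalein than in DMSO. Of 8 muscle markers 3 were lower and 1 higher in DMSO than in water, and 4 were higher in baicalein than in DMSO. Of 7 intestine markers 4 were lower and 2 higher in DMSO than in water, and 1 was higher in baicalein than in DMSO. The background was 16.7% of all probe sets lower and 10.9% higher in DMSO than in water. In baicalein against DMSO 507 of 29317 were higher. The part of germline content and of stage in the differences of the 27 genes was not tested. Between water and the other groups a difference in stage and the treatment cannot be told apart.

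**Figure D5:**
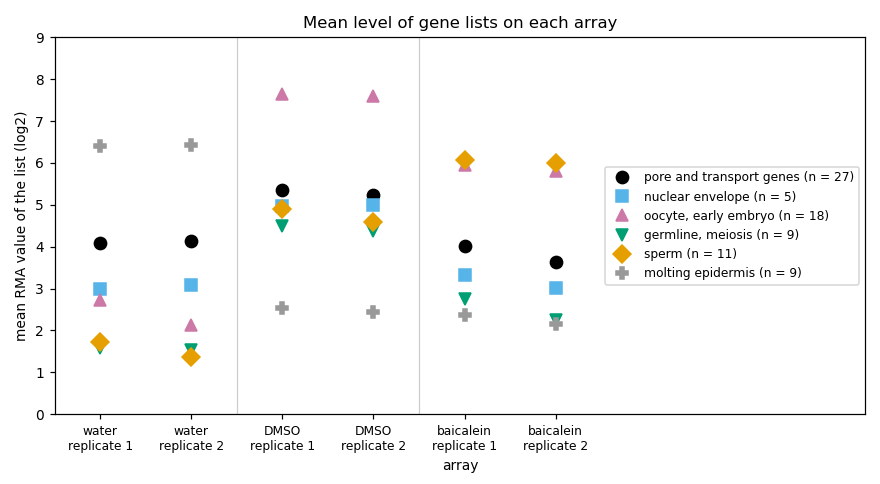
Points are the mean log2 RMA value of each gene list on each of the 6 arrays, with the number of named genes in the key (*mel-28* is counted in the nuclear envelope list). Oocyte and meiosis lists and the pore and transport genes are highest on the DMSO arrays, the sperm list is highest on the baicalein arrays, and the molting epidermis list is highest on the water arrays.

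Some of the 27 genes are neighbours in the genome. *npp-15* lies next to *ran-2* and *imb-3* next to *xpo-2* in the RefSeq gene order. In DMSO over water as deposited, *npp-15* and *xpo-2* passed and *ran-2* and *imb-3* did not, although the difference within a pair was not tested. After cyclic loess normalization *ran-2* and *imb-3* passed too (adjusted p = 0.015 and 0.035), so that both pairs then shared this call. Between baicalein and water neither *npp-15* nor *ran-2* passed.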

How the data were processed

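RNA of 6 whole-worm samples was measured on the Affymetrix *C. elegans* Gene 1.1 ST array. The authors deposited log2 values made by RMA (background correction, log2 transformation, quantile normalization and summary per probe set), which were used as deposited, although array medians ran from 1.42 to 1.59 and upper quartiles from 2.46 to 3.26. The methods give 3 independent samples, whereas the deposited data hold 2 arrays per group, all of which are analysed here. The p-values measure the spread between these arrays. For baicalein versus DMSO and DMSO versus water the authors also deposited tables with their fold changes and the p-value of their analysis of variance. Names were taken from those tables (22 of the 27 genes matched to RefSeq by accession, WBcel235, and 5 by symbol), and of the p-value column only its highest value was read. The genome build of the array annotation is not given in the sources used here.

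The 3 groups were fitted together with limma 3.58.1 in R 4.3.3, using moderated variances (3 residual and 3.51 prior degrees of freedom). Benjamini-Hochberg adjustment covered the 29317 probe sets, and the threshold was 0.05. No probe set was filtered out. Errors are standard errors of the fit and intervals are 95%. For a fold against the floor, a group mean under the median of all values, 1.51, was raised to it. Such a fold has no interval, and the p-values belong to the values as deposited. The fit was tested on simulated data.

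The genes, lists and tests were chosen with earlier results of these data known. Values on every array are given for the 2 genes of each role with the largest difference between baicalein and DMSO. They are also given for all importins, exportins and Ran cycle genes and for genes that run against their group. After their values were seen, *npp-3*, *npp-12*, *npp-18*, *mel-28*, *npp-25* and *xpo-7* were added. Up to 2 genes of a list of other genes are named, those with the smallest p in baicalein versus DMSO. *spe-44* and *gld-4* were added after their values were seen.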

Additional observations from a re-analysis of the deposited data

How the results depend on the processing

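The sign of all 27 differences was kept under the 15 alternatives for baicalein against DMSO and for DMSO against water, and that of 19 of 27 for baicalein against water. In baicalein against DMSO, the contrast by which the genes were chosen and for which the counts are only a description, the 22 lower calls became 10 with only the arrays of the compared groups, 0 under the methods' analysis of variance with Benjamini-Hochberg adjustment (23 by its unadjusted p), and 0 to 25 with an array left out, where the lone array of a group is assumed to vary like the other groups. Without DMSO replicate 1 no probe set on the array passed (smallest adjusted p 0.0624). The median difference was -1.09 after a further quantile normalization. In DMSO against water the 16 higher calls became 7 under the adjusted analysis of variance and 10 to 21 with an array left out. The lower calls were 1 (*ima-3*) with only the compared arrays and after quantile or cyclic loess normalization, and 0 to 1 with an array left out. In baicalein against water the 5 lower calls became 3 after quantile normalization, 1 under the adjusted analysis of variance and 2 to 12 with an array left out, and the 3 higher calls became 5, 6 after cyclic loess, 0 under the adjusted analysis of variance and 1 to 3. The median was -0.64 to -0.25 with an array left out. *npp-6* in baicalein against water was -0.01 as deposited but 0.67 after quantile normalization (adjusted p = 0.0358) and 0.53 after cyclic loess (adjusted p = 0.0485). Some genes that did not pass in DMSO against water as deposited passed as higher under other settings. These were *imb-3* and *npp-12* after quantile normalization, and *imb-3*, *ran-2* and *thoc-1* after cyclic loess. With only the compared arrays they were *npp-7*, *npp-10*, *npp-12*, *imb-3* and *thoc-1*. The causes were not tested.

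Over all probe sets, the share of calls that were higher was 19.8% as deposited, 45.9% after quantile and 42.5% after cyclic loess normalization in baicalein against DMSO, 30.6%, 46.7% and 45.9% in baicalein against water, and 39.4%, 48.1% and 48.0% in DMSO against water. Centring the arrays moved the median of all probe sets in DMSO against water from 0.09 to 0.20.

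The trial numbers were not taken as pairs, since deviations of same-numbered arrays correlated at -0.05, -0.07 and 0.16. With the replicate block 22 genes were lower in baicalein than in DMSO, 16 were higher in DMSO than in water, and 5 were lower and 3 higher in baicalein than in water, with 21, 16 and 7 genes in common with the calls without it.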

Other observations

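Equal values to the last digit on different arrays occurred in 1 of the 27 genes, *ima-1*, on water replicate 2 and baicalein replicate 2, and in 201 of 29317 probe sets in all (0.686%). Within a group they occurred in 72 probe sets. *mel-28*, which is not among the 27, had equal values on both water arrays.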
